A study of Mus musculus with 12 samples.

Results

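The genes for the nuclear-encoded subunits of the mitochondrial oxidative phosphorylation system were followed in 12 RNA sequencing libraries of CD11b dendritic cells (DCs). Members were taken by symbol: Nduf genes with the letter a, b, c, s or v and a number for complex I, Sdha to Sdhd for complex II, Uqcr genes for complex III, Cox4 to Cox8 genes for complex IV and Atp5 genes for complex V, without pseudogenes. This gave 84 of the 24391 genes in the count table, of which 37 belong to complex I, 4 to complex II, 8 to complex III, 18 to complex IV and 17 to complex V. The mice were wild-type C57BL/6J, 8 to 12 weeks old. All had received a replication-deficient adenovirus by the intratracheal route, either empty (AdCL, the control) or carrying the porcine TGF-β1 gene in its biologically active form (AdTGFb1), so that the controls carried vector too. Each of experiment 1 and experiment 3 gave 3 libraries per vector. In experiment 1 these were DC 7, 8 and 9 for AdCL against DC 14, 52 and 54 for AdTGFb1. In experiment 3 they were DC 943, 944 and 949 for AdCL against DC 954, 955 and 956 for AdTGFb1, and values below follow this order. The sources used here do not give whether a library is 1 animal or a pool, the time after the vector or the sort gate, so p-values measure the spread between these libraries.

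The respiratory chain passes electrons from NADH (complex I) or succinate (complex II) through ubiquinone, complex III and cytochrome c to oxygen at complex IV. Complexes I, III and IV pump protons out of the mitochondrial matrix, and complex V, the ATP synthase, lets them back to make ATP. Complex II is also an enzyme of the citric acid cycle and pumps no protons. In myeloid cells this machinery is known to be used to different degrees by resting and inflammatory states, and alveolar macrophages are known for their reliance on it. The subunits encoded by mitochondrial DNA are not members and were not analysed here.

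Of the 84 members, 79 passed the filter on low counts. Cox7b2, Cox8b, Cox8c and Ndufs5 had no count in any library, where 3 counts would be 0.181 to 0.31 CPM (the count after TMM scaling for sequencing depth). Ndufa4l2 had 35 counts in all. Ndufs5 encodes an accessory complex I subunit, and 60.8% of its transcript lies in stretches at least 95% identical to another gene. Cox8b and Cox8c are tissue-restricted forms, and Cox8a, the widely expressed form, was present at 102.6 CPM. Of the 79 tested members, 76 had a mean of at least 1 CPM.

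Levels were compared between genes only per length, as the mean CPM per kilobase of transcript over the 12 libraries. The median was 39.4 in complex I, 39.9 in complex II, 65.7 in complex III, 76.4 in complex IV and 84.3 in complex V. Atp5b, the catalytic beta subunit of the ATP synthase, had the highest level, 258 CPM per kb. The highest in the other complexes were Cox4i1 (197 CPM per kb), a regulatory subunit of complex IV, Ndufa6 (191 CPM per kb) in complex I, Uqcrh (184 CPM per kb), the hinge protein of complex III, and Sdha (86.0 CPM per kb), the flavoprotein of succinate dehydrogenase. Within complex II the order was Sdha, Sdhb, Sdhc and Sdhd, with 86.0, 47.4, 32.4 and 24.7 CPM per kb. Isoforms that are known from muscle or from lung were at the low end: Cox4i2 at 0.929, Cox7a1 at 1.09 and Cox6a2 at 1.29 CPM per kb, against 161 CPM per kb for Cox6a1 and 76.5 CPM per kb for Cox7a2, their widely expressed partners. Of the 3 genes that encode the same mature c-ring subunit of complex V, Atp5g3 stood at 49.8, Atp5g2 at 6.06 and Atp5g1 at 6.00 CPM per kb. Near-identical copies cover 88.2% of the Atp5g2 transcript and 59.5% of that of Atp5g1, so these 2 levels are uncertain. Lengths were medians over a gene's transcripts. For Atp5g1 this was 2675.5 bases, while the transcript used to look for copies had 691. Its level per kb depends on that choice and would be higher with the shorter length. The rule also takes in Ndufa4, now known as a complex IV subunit, Cox7a2l, a factor of respiratory supercomplexes, and Atp5s and Atp5sl, which are not parts of the ATP synthase itself.

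**Figure D1:**
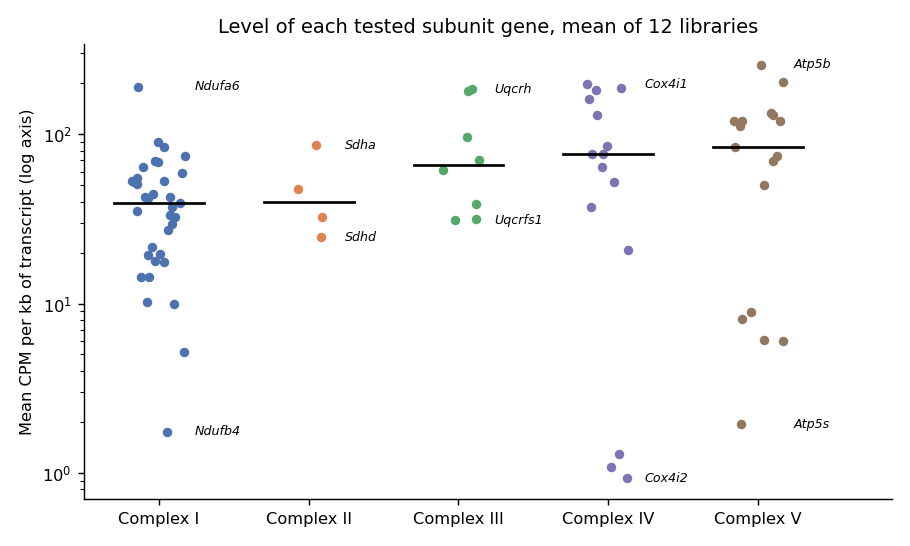
Mean CPM per kb of transcript of each tested member (points, log axis) by complex, with the median as a black line and the lowest and highest member named. Complex V has the highest median (84.3) and complex I a wide range, from 1.74 for Ndufb4 to 191 for Ndufa6. Near-identical stretches of other genes cover 40.2% of the Ndufb4 transcript, so its level is uncertain.

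The libraries differed in other measures too. Totals ran from 10099912 to 15594546 counts. AdCL DC 7, 8 and 9 and AdTGFb1 DC 14 came from males by Xist and Ddx3y, and the other 8 libraries from females, so sex and vector overlap in experiment 1. All 8 conventional DC markers were detected, with summed levels of 2130 to 2260 CPM in AdCL and 660 to 795 CPM in AdTGFb1 of experiment 1, and of 1880 to 2850 CPM and 724 to 986 CPM in experiment 3. The sums for 11 macrophage markers were 4570 to 6000 CPM and 12700 to 16500 CPM in experiment 1, and 8610 to 11900 CPM and 18600 to 22100 CPM in experiment 3. Cells labelled as DCs thus carried macrophage transcripts in every library, more of them with AdTGFb1 in both experiments.

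The first question was whether AdTGFb1 changed the subunit genes when both experiments were fitted together, with an additive term for the experiment. With edgeR's quasi-likelihood test and Benjamini-Hochberg adjustment over 13221 genes, 1 of 79 members was called at an adjusted p under 0.05, against 17.2% of all genes tested. That gene was Cox6b2, the testis form of the subunit that joins complex IV into dimers. Its levels were 15.1, 13.6 and 11.3 CPM in AdCL and 8.79, 5.44 and 6.60 CPM in AdTGFb1 of experiment 1. In experiment 3 they were 9.91, 8.55 and 13.9 CPM in AdCL and 2.72, 9.02 and 2.66 CPM in AdTGFb1, so that only AdTGFb1 DC 955 reached into the AdCL range. The log2 fold change was -1.06 ± 0.36 (SE, adjusted p = 0.0479). Of 19 other settings run, 4 kept the call and 15 lost it. Among the 15 were most fits that left out 1 library. The call was also lost with a term for sex, with one for other cells and without the low-count filter. No member was called higher, with 4 higher and 2 lower at an unadjusted p under 0.05, while DESeq2 called 2 higher. Cox6b1, its widely expressed partner, had a log2 fold change of -0.24 (adjusted p = 0.42). The median log2 fold change of the 79 members was 0.10, beside -0.002 for all genes tested.

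Split by experiment, the subunit genes went opposite ways. In experiment 1, 72 of 79 members had a positive log2 fold change with AdTGFb1, with a median of 0.49 (all genes tested, -0.03). In experiment 3, 70 of 79 had a negative one, with a median of -0.31 (all genes tested, 0.003). The sum of all 84 members, tested or not, was 3688 ± 226 CPM in AdCL and 5047 ± 401 CPM in AdTGFb1 of experiment 1. In experiment 3 it was 4423 ± 223 CPM and 3612 ± 373 CPM (SD, n = 3 each). AdTGFb1 over AdCL was therefore 1.37 in experiment 1 and 0.817 in experiment 3. The AdTGFb1 libraries of experiment 3 were close in summed level to the AdCL libraries of experiment 1. In libraries of bulk RNA, fewer cells of a type and less RNA per cell cannot be told apart.

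**Figure D2:**
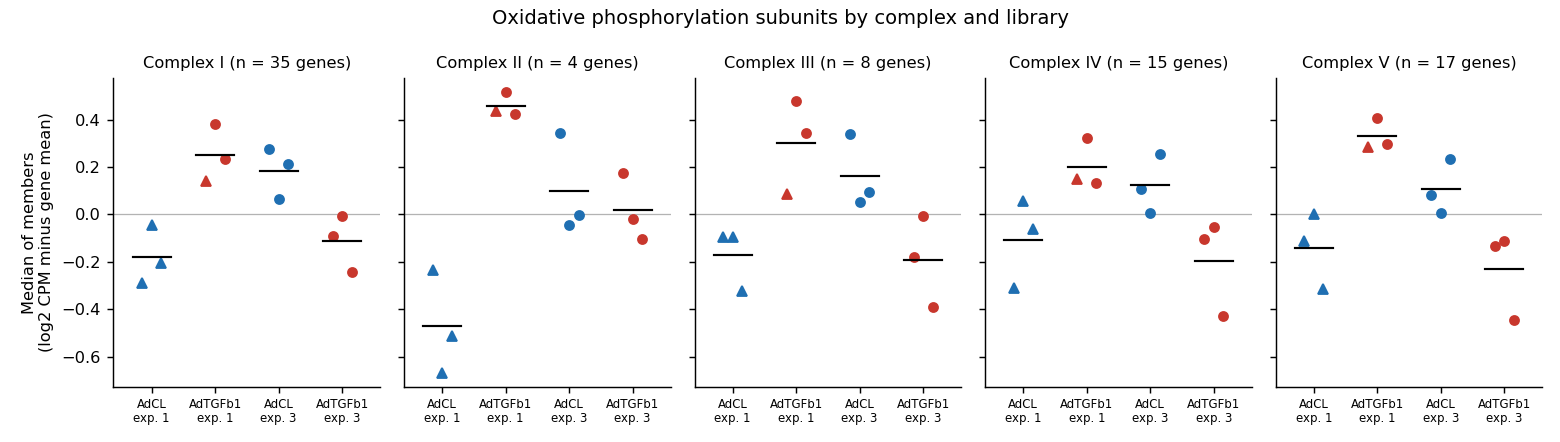
Median over the tested members of a complex of log2 CPM minus the gene's mean, in each library (AdCL blue, AdTGFb1 red, triangles male, circles female, black lines the mean of 3 libraries). In experiment 1 every AdTGFb1 library lies above every AdCL library in all 5 complexes, and in experiment 3 the AdTGFb1 libraries lie lower in complexes I, III, IV and V while those of complex II overlap.

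In experiment 1, 21 of 79 members rose with AdTGFb1 (26.6%), against 10.6% of all genes tested, and none was called lower, with 1 lower at an unadjusted p under 0.05. In 34 members (43%) every AdTGFb1 library lay above every AdCL library, which held for 18.8% of all genes. In experiment 3, 4 members fell (5.06%), near the 4.46% of all genes, with 19 lower and none higher at an unadjusted p under 0.05. In 22 members (27.8%) every AdTGFb1 library lay below every AdCL library, against 12.9% of all genes. The difference between the 2 effects, called the interaction here (experiment 3 minus experiment 1), was called in 17 members (21.5%). All 17 were negative, against 2.59% of all genes with a negative call and 6.02% with a call in either direction. Of these 17, 12 were also called in experiment 1, 4 in experiment 3 and 1 in neither. Counting libraries alone, 10 members (12.7%) were above AdCL in every AdTGFb1 library of experiment 1 and below it in every one of experiment 3, as were 1.1% of all genes. Between experiments 3 and 1 in the additive fit, which takes both vectors together, no member was called, against 6.43% of all genes. At an unadjusted p under 0.05, 1 was higher and 3 were lower, and DESeq2 called 1. Opposite differences in the 2 vectors can offset each other in that fit. From experiment 1 to 3 the summed level went from 3688 to 4423 CPM in AdCL and from 5047 to 3612 CPM in AdTGFb1. The experiments were not tested against each other within a vector. Within AdCL, all libraries of experiment 1 were male and all of experiment 3 female. Sex and experiment cannot be told apart there.

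**Figure D3:**
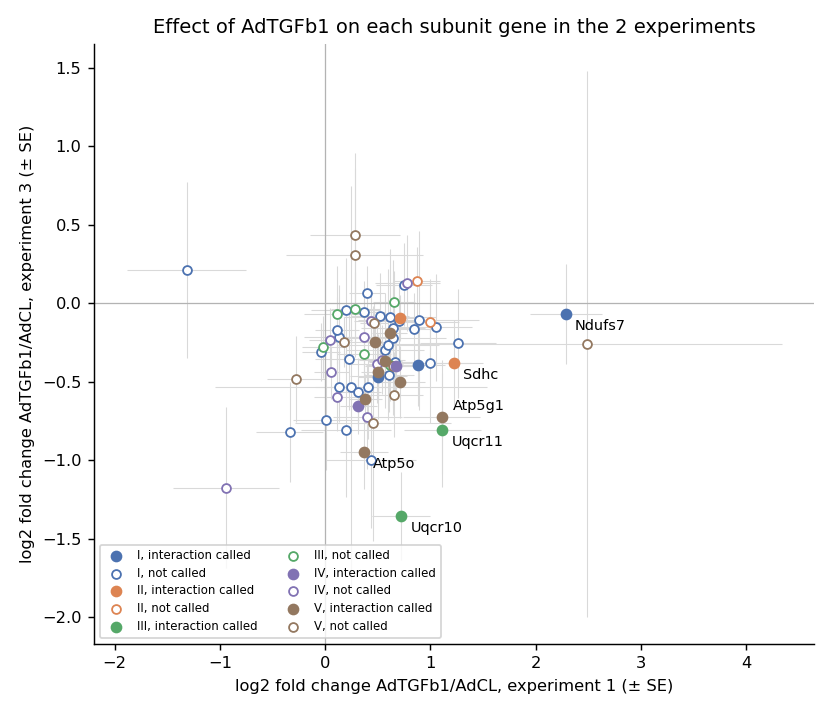
Log2 fold change AdTGFb1/AdCL in experiment 1 (x axis) and experiment 3 (y axis), ± SE, for the 76 tested members with a mean of at least 1 CPM, coloured by complex and filled where the interaction was called. Most lie at lower right, higher in experiment 1 and lower in experiment 3, as 64 of all 79 tested members were.

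Fits that allowed for other differences between the libraries made fewer calls, among the members and over the whole table. Without such terms 24.7% of all genes were called in either direction in experiment 1, 6.43% in experiment 3 and 6.02% for the interaction. With a term for sex, 4 members were called in experiment 1 and none for the interaction, with 9.8% and 1.19% of all genes. The members' medians were then 0.35 and -0.63. With AdTGFb1 DC 52 and 54 left out, so that all libraries of experiment 1 were male, the counts were 3 and 0, with 8.76% and 1.64% of all genes, and the medians 0.36 and -0.64. With the marker level of other cells as a term (endothelial, epithelial, fibroblast, lymphocyte, neutrophil and platelet) none was called in experiment 1 or for the interaction, with 0.923% and 0.734% of all genes. In experiment 3, 1 was called, with 4.58% of all genes. The members' medians in that fit were 0.57 and -0.86, beside 0.49 and -0.81 without the term. Over both experiments the median in that fit was negative in every complex, from -0.303 (IV) to -0.134 (III). The sum of 8 alveolar macrophage markers was 80.6 to 178 CPM in AdCL and 1090 to 2290 CPM in AdTGFb1 of experiment 1, and 228 to 627 CPM and 76.5 to 136 CPM in experiment 3, so that it moved the way the members did. With a term for these markers 2 members were called in experiment 1, none in experiment 3 and none for the interaction, with 5.51%, 1.38% and 0.318% of all genes. The medians were 0.25, -0.19 and -0.32. All 8 markers were detected, and of them 3 rose in experiment 1 and 2 fell in experiment 3. The sum of 10 endothelial markers went the other way, with 218 to 641 CPM in AdCL and 65.2 to 85.0 CPM in AdTGFb1 of experiment 1, and 78.5 to 131 CPM and 118 to 175 CPM in experiment 3. Counts on the ribosomal RNA precursor Rn45s made up 7.44 to 8.33% and 5.6 to 7.46% in experiment 1 and 3.92 to 4.77% and 5.91 to 7.16% in experiment 3. In experiment 1 only AdTGFb1 DC 14 separates the vector from sex, and beyond it they cannot be told apart. The part of the other cells and of Rn45s in the result was not tested. Over all 79 tested members, 74 interaction values were negative without added terms, 72 with the sex term, 71 with the other-cell term and 60 with the alveolar macrophage term. Negative values in experiment 1 numbered 7, 16, 17 and 26 in the same order.

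Complex II, which oxidises succinate, had all 4 genes called higher in experiment 1, against 10.6% of all genes tested. Its median log2 fold change was 0.93 in experiment 1 and -0.11 in experiment 3. Its summed level went from 192.4 ± 6.4 CPM in AdCL to 341.1 ± 17 CPM in AdTGFb1 of experiment 1, a ratio of 1.77, and was 273.8 ± 24 CPM and 260 ± 22.5 CPM in experiment 3, a ratio of 0.95. Sdha, the flavoprotein that holds the succinate site, stood at 97.8, 127 and 127 CPM in AdCL and 182, 199 and 193 CPM in AdTGFb1 of experiment 1. In experiment 3 it stood at 166, 150.4 and 171 CPM in AdCL and 156, 160.1 and 140.3 CPM in AdTGFb1. The groups were apart in experiment 1 (log2 fold change 0.71 ± 0.15, adjusted p = 0.000951) and overlapped in experiment 3 (-0.09 ± 0.14, adjusted p = 0.817). The interaction for Sdha was -0.80 ± 0.21 (adjusted p = 0.0208).

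Sdhc, a membrane anchor of complex II, was at 20.4, 15.9 and 14.1 CPM in AdCL and 32.3, 44.1 and 41.5 CPM in AdTGFb1 of experiment 1. In experiment 3 Sdhc was at 37.1, 24.8 and 22.1 CPM in AdCL and 21.4, 19.6 and 23.6 CPM in AdTGFb1, where the groups overlapped. Its log2 fold changes were 1.23 ± 0.28 and -0.38 ± 0.27, with an interaction of -1.60 ± 0.39 (adjusted p = 0.0143). Sdhb, the iron-sulfur subunit, rose by 0.87 ± 0.22 in experiment 1, and Sdhd, the other anchor, by 0.99 ± 0.28. For neither was the interaction called (adjusted p = 0.179 and 0.0932), and both had overlapping groups in experiment 3. None of the complex II genes shares exons with another gene or has a near-identical copy by the thresholds used.

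In complex I, the NADH dehydrogenase, 7 of 35 tested genes rose in experiment 1 (20.0%, all genes 10.6%). None was called in experiment 3 and 3 were called for the interaction. The medians were 0.51 and -0.26. The summed level was 901.6 ± 59.8 CPM and 1237 ± 97.1 CPM in experiment 1 and 1161 ± 110 CPM and 959.4 ± 64.5 CPM in experiment 3. Ndufs7, the core subunit that carries the iron-sulfur cluster next to ubiquinone, had the largest change among called members. It stood at 4.65, 6.37 and 5.67 CPM in AdCL and 22.9, 32.5 and 26.1 CPM in AdTGFb1 of experiment 1. Ndufs7 in experiment 3 stood at 27.7, 14.8 and 23.1 CPM in AdCL and 26.1, 18.8 and 17.7 CPM in AdTGFb1. The AdCL libraries of experiment 1 were thus below the other 9 libraries, which overlapped. The log2 fold changes were 2.29 ± 0.34 (adjusted p = 3.3e-05) and -0.07 ± 0.32, and the interaction was -2.35 ± 0.46 (adjusted p = 0.00337).

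The other genes of complex I that rose in experiment 1 were Ndufv2 and Ndufv3 of the NADH-oxidising end, Ndufs6, and the accessory subunits Ndufa3, Ndufa10 and Ndufc2, with log2 fold changes from 0.70 for Ndufv2 to 1.26 for Ndufs6. Ndufs6 is uncertain, with near-identical copies over 61.3% of its transcript and exons that overlap Mrpl36. Ndufa3, whose exons overlap Tfpt on the opposite strand, and Ndufa13 (also known as GRIM-19), whose exons overlap Tssk6, were called for the interaction, at -1.27 ± 0.37 and -0.97 ± 0.27. The core subunits Ndufv1, Ndufs1 and Ndufs8 had log2 fold changes of 0.64, 0.52 and 0.13 in experiment 1, and none of them passed the test. Exons of Ndufs1 overlap Eef1b2 on the opposite strand. Grouped by position, the 10 genes of the NADH-oxidising module had medians of 0.63 and -0.17 in the experiments 1 and 3, the 6 of the quinone module 0.49 and -0.17, and the 18 tested genes of the membrane arm 0.47 and -0.42. In the membrane arm all 18 were positive in experiment 1 and all 18 negative in experiment 3. Ndufa4 had the only positive interaction value among the tested genes of complex I, and it was not called (adjusted p = 0.286). Its log2 fold changes were -1.32 ± 0.57 and 0.21 ± 0.56, called in neither experiment (adjusted p = 0.0952 and 0.904).

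In complex III, which hands electrons from ubiquinol to cytochrome c, 2 of 8 genes rose in experiment 1 (25.0%, all genes 10.6%). In experiment 3, 1 fell (12.5%, all genes 4.46%), and 2 were called for the interaction. The medians were 0.49 and -0.30. Uqcr10, a small accessory subunit near cytochrome c1, had the smallest interaction p of all members. It stood at 16.7, 23.5 and 19.5 CPM in AdCL and 26.7, 34.5 and 37.5 CPM in AdTGFb1 of experiment 1, and at 43.0, 30.9 and 41.8 CPM in AdCL and 11.0, 18.4 and 15.8 CPM in AdTGFb1 of experiment 3. The groups did not overlap in either experiment, and their order was reversed. The log2 fold changes were 0.72 ± 0.28 (adjusted p = 0.0583) and -1.35 ± 0.28 (adjusted p = 0.00355), with an interaction of -2.08 ± 0.39 (adjusted p = 0.00255). Near-identical stretches of another gene cover 43.8% of the Uqcr10 transcript.

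Uqcr11, another small subunit of complex III, rose by 1.11 ± 0.37 in experiment 1 and had -0.81 ± 0.36 in experiment 3, with an interaction of -1.92 ± 0.51 (adjusted p = 0.0267). Near-identical stretches of other genes cover 38.4% of its transcript. Uqcrc1, a core protein of the complex, rose from 57.4, 82.7 and 85.5 CPM to 103, 134 and 117 CPM in experiment 1 (0.65 ± 0.20, adjusted p = 0.0201). In experiment 3 Uqcrc1 was at 83.2, 97.4 and 103 CPM in AdCL and 118, 98.6 and 69.3 CPM in AdTGFb1, a log2 fold change of 0.01 ± 0.20. Uqcrfs1, the Rieske iron-sulfur protein, had 0.11 and -0.07, and Uqcrh -0.02 and -0.28, none of which passed the test.

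Complex IV, cytochrome c oxidase, had the smallest median in experiment 1, 0.37, and a median of -0.39 in experiment 3. Of its 15 tested genes 1 rose in experiment 1 (6.67%, below the 10.6% of all genes). In experiment 3, 1 fell (6.67%, all genes 4.46%), and 2 were called for the interaction. Cox6a1, the widely expressed form of a regulatory subunit, stood at 89.8, 94.2 and 68.2 CPM in AdCL and 103, 112 and 98.7 CPM in AdTGFb1 of experiment 1. Cox6a1 in experiment 3 stood at 112, 90.4 and 126 CPM in AdCL and 62.3, 74.2 and 72.4 CPM in AdTGFb1. No libraries of the 2 vectors overlapped in either experiment. The log2 fold changes were 0.32 ± 0.18 (adjusted p = 0.201) and -0.66 ± 0.18 (adjusted p = 0.0243), and the interaction was -0.97 ± 0.25 (adjusted p = 0.0207).

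Cox6c, a small membrane subunit whose exons overlap Vps13b on the opposite strand, rose by 0.67 ± 0.21 in experiment 1, with an interaction of -1.07 ± 0.30 (adjusted p = 0.0325). Its signs turned with the term for alveolar macrophage markers, to -0.28 in experiment 1 and 0.57 for the interaction. Cox4i1, whose exons overlap Emc8, stood at 156, 139 and 167 CPM in AdCL and 157, 160.4 and 164 CPM in AdTGFb1 of experiment 1, where the groups overlapped. Cox4i1 in experiment 3 stood at 140.3, 159.7 and 172 CPM in AdCL and 145, 118 and 85.1 CPM in AdTGFb1, with a log2 fold change of -0.44 ± 0.17 (adjusted p = 0.143). Cox5a and Cox5b, which line the matrix side, had 0.78 and 0.49 in experiment 1 and 0.13 and -0.39 in experiment 3, and Cox8a had 0.43 and -0.11, none called. Exons of Cox5a overlap Gm26631.

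In complex V, 7 of 17 genes rose in experiment 1 (41.2%, all genes 10.6%) and 2 fell in experiment 3 (11.8%, all genes 4.46%). For the interaction 8 were called, and the complex had medians of 0.48 and -0.40 in experiments 1 and 3. Its summed level was 1477 ± 106 CPM and 2038 ± 154 CPM in experiment 1 and 1685 ± 52.2 CPM and 1364 ± 167 CPM in experiment 3. In the catalytic F1 head, Atp5b stood at 449.6, 500.4 and 406.9 CPM in AdCL and 591, 649 and 649 CPM in AdTGFb1 of experiment 1. Atp5b in experiment 3 stood at 465, 469 and 516 CPM in AdCL and 430.4, 455 and 339 CPM in AdTGFb1. The groups were apart in both experiments, in opposite order. The log2 fold changes were 0.48 ± 0.14 (adjusted p = 0.0126) and -0.24 ± 0.14 (adjusted p = 0.361), with an interaction of -0.72 ± 0.19 (adjusted p = 0.026). Atp5a1, the alpha subunit, whose exons overlap Haus1, and Atp5c1, the gamma subunit of the rotor, rose in experiment 1 by 0.47 ± 0.13 and 0.61 ± 0.17, while Atp5d, whose exons overlap Cbarp, and Atp5e of the rotor did not pass the test.

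The membrane part and stalk of complex V held 6 of its 8 interaction calls. The 10 genes of this group had medians of 0.53 in experiment 1 and -0.54 in experiment 3, and the 5 of the F1 head 0.47 and -0.24. Atp5h, subunit d of the outer stalk, stood at 121, 125 and 106 CPM in AdCL and 155, 158 and 146 CPM in AdTGFb1 of experiment 1, and at 137, 146 and 150.0 CPM in AdCL and 92.3, 113 and 78.9 CPM in AdTGFb1 of experiment 3. It fell by 0.61 ± 0.16 in experiment 3 (adjusted p = 0.018), with 0.38 ± 0.16 in experiment 1 (adjusted p = 0.0763) and an interaction of -0.99 ± 0.22 (adjusted p = 0.00816). Near-identical stretches of other genes cover 77.8% of its transcript. Again the groups were apart in both experiments.

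Atp5j, the coupling factor 6 of the stalk, stood at 73.9, 84.9 and 82.5 CPM in AdCL and 117, 119.5 and 105 CPM in AdTGFb1 of experiment 1. Atp5j in experiment 3 stood at 105, 91.3 and 107 CPM in AdCL and 76.0, 76.7 and 71.6 CPM in AdTGFb1. Its interaction was -0.94 ± 0.22 (adjusted p = 0.0119), and its exons overlap Gabpa on the opposite strand. Atp5o, the protein that ties the stalk to F1, fell by 0.95 ± 0.23 in experiment 3 (adjusted p = 0.0143), from 65.0, 59.3 and 63.3 CPM to 27.8, 39.4 and 30.2 CPM. In experiment 1 Atp5o stood at 56.7, 62.6 and 30.1 CPM in AdCL and 59.5, 69.3 and 63.9 CPM in AdTGFb1. The groups overlapped there because AdCL DC 8 lay above AdTGFb1 DC 14. Near-identical stretches cover 80.3% of the Atp5o transcript, and its exons overlap those of Donson on the same strand. Atp5f1 and Atp5j2, 2 more subunits of the membrane part and stalk, had interactions of -0.94 ± 0.23 and -1.22 ± 0.33. Atp5f1 is uncertain, with near-identical stretches over 64.6% of its transcript and exons that overlap Wdr77. Of the c-ring genes, Atp5g1 rose by 1.11 ± 0.37 in experiment 1 and had an interaction of -1.83 ± 0.51, Atp5g3 had -1.05 ± 0.38 (adjusted p = 0.104) and Atp5g2 -1.22 ± 1.05 (adjusted p = 0.566).

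**Figure D4:**
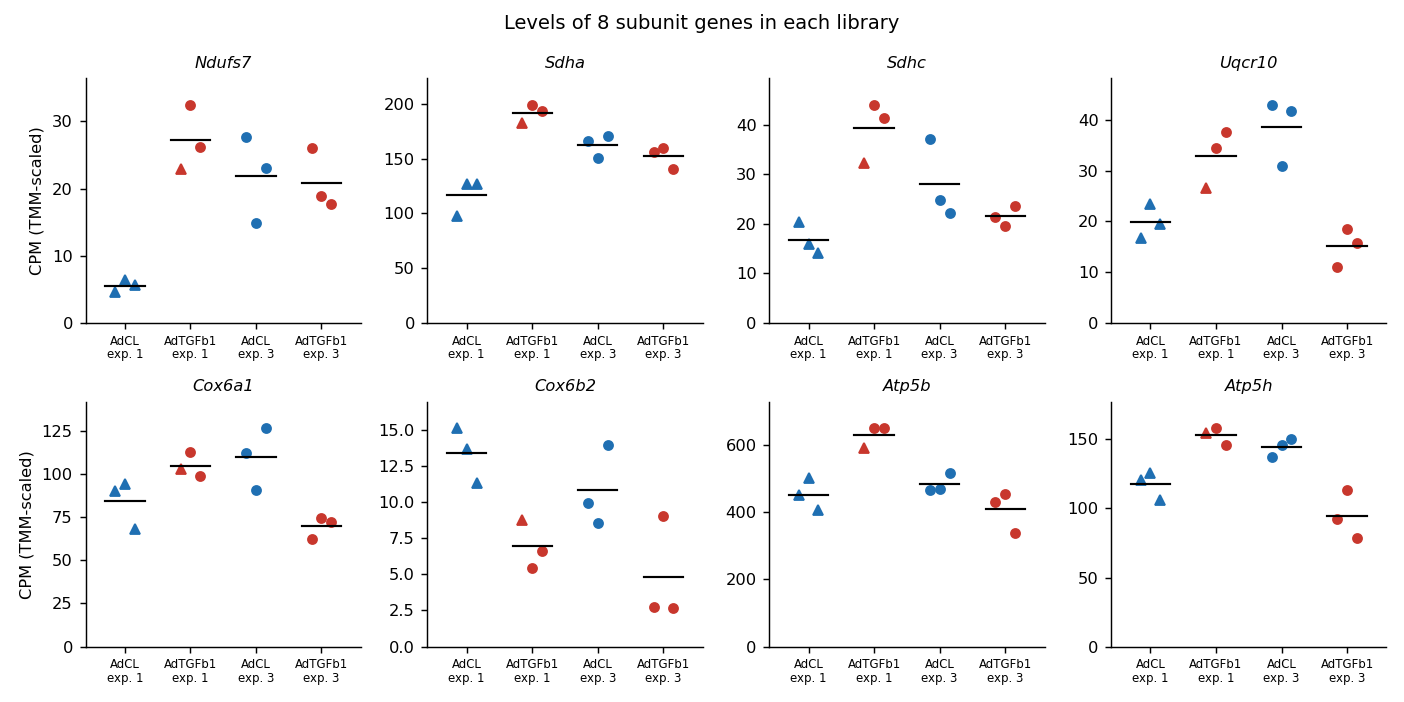
TMM-scaled CPM of 8 subunit genes in each library (AdCL blue, AdTGFb1 red, triangles male, circles female, black lines the mean of 3). Uqcr10 lies between 26.7 and 37.5 CPM in AdTGFb1 of experiment 1 and between 11.0 and 18.4 CPM in AdTGFb1 of experiment 3, while Cox6b2 is low with AdTGFb1 in both.

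Among the complexes, the share of members called for the interaction was 3 of 35 in complex I, 2 of 4 in II, 2 of 8 in III, 2 of 15 in IV and 8 of 17 in V. Over all genes tested, 2.59% had a negative interaction call. The median interaction lay between -0.96 (complex II) and -0.65 (complex IV), beside 0.03 over all genes tested, and differences between complexes were not tested because members are not replicates. More deeply counted members were measured more precisely: 33 members with at least 40 CPM had a median SE of the interaction of 0.29 and 10 calls, and 46 below that 0.47 and 7 calls, while their median interactions were -0.73 and -0.91. Of 47 tested members with neither shared exons nor near-identical copies over at least 50% of the transcript, 40 were positive in experiment 1, 42 negative in experiment 3 and 9 called for the interaction, with a median of -0.80. Transcript length moved with the interaction over all genes, with a median of -0.14 for the 2560 tested genes under 1 kb and 0.16 for the 4090 over 3 kb. Of the tested members, 59 are under 1 kb. Its part in the members' values was not tested.

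Other mitochondrial genes were read from lists. Of 18 citric acid cycle genes, 8 rose in experiment 1 (44.4%, all genes 10.6%, median 0.61). None was called in experiment 3 (all genes 6.43% in either direction, median -0.17). Idh2, the NADP-dependent isocitrate dehydrogenase, rose over both experiments by 0.77 ± 0.18 (adjusted p = 0.00564). Of 77 genes of the mitochondrial ribosome, 6 rose in experiment 1 (7.79%, median 0.29) and 1 fell in experiment 3 (1.3%, median -0.20), both shares below those of all genes tested. Of 45 tested assembly factors, 1 rose and 4 fell over both experiments (11.1%, below the 17.2% of all genes): Coa5, a complex IV assembly factor, rose by 0.72 ± 0.19, and Ttc19, which serves complex III, fell by 1.03 ± 0.17 (adjusted p = 0.000441). Genes of the cytosolic ribosome did not follow the subunits, with medians of -0.44 and -0.53. Over both experiments 36 of 47 were called, all of them lower (76.6%, all genes 17.2% in either direction).

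Carriers and regulators that work with the complexes were also read. Cycs, cytochrome c, had 0.46 ± 0.24 in experiment 1 and -0.35 ± 0.24 in experiment 3, and Cyc1, the cytochrome c1 of complex III that the symbol rule leaves out, 0.82 ± 0.33 and -0.28 ± 0.32, none called. Atpif1, the inhibitor of the ATP synthase, rose by 0.56 ± 0.18 in experiment 1 and had an interaction of -0.95 ± 0.25 (adjusted p = 0.0244). Ucp2, an inner-membrane carrier, rose by 0.90 ± 0.13 in experiment 1, with an interaction of -0.68 ± 0.18 (adjusted p = 0.0264). Ppargc1b, a coactivator of mitochondrial genes, stood at 5.95 ± 3.87 CPM and 41.7 ± 5.24 CPM in experiment 1 and at 14.3 ± 4.45 CPM and 23.1 ± 1.4 CPM in experiment 3 (SD, n = 3). It rose by 2.81 ± 0.41 in experiment 1 and over both experiments by 1.73 ± 0.40, with an interaction of -2.12 ± 0.55 (adjusted p = 0.0226). Its relative Ppargc1a was not tested because it was near 0. Of 18 tested regulators of mitochondrial biogenesis, 1 rose and 2 fell over both experiments (16.7%, near the 17.2% of all genes). In experiment 1, 2 rose (11.1%, near the 10.6% of all genes) and 4 fell. Those that fell over both were Gabpb1, the partner of Gabpa, by 0.98 ± 0.21 (adjusted p = 0.00309) and Pprc1, a coactivator related to Ppargc1b, by 0.71 ± 0.18 (adjusted p = 0.0105). Nrf1 and Gabpa, transcription factors known to act on subunit genes, had log2 fold changes over both experiments of 0.08 and -0.13, neither called, and Esrra rose by 1.25 ± 0.41 in experiment 1 (adjusted p = 0.029).

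**Figure D5:**
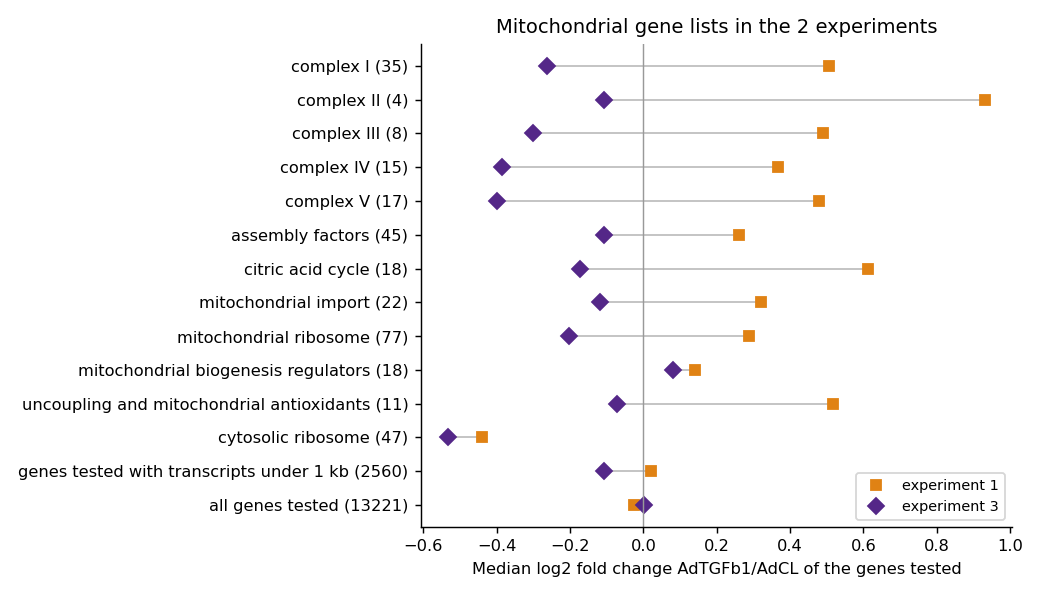
Median log2 fold change AdTGFb1/AdCL of the tested genes of each list (number in brackets) in experiment 1 (orange squares) and experiment 3 (purple diamonds). The 5 complexes and the citric acid cycle lie on opposite sides of 0 in the 2 experiments, while the cytosolic ribosome lies below 0 in both.

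The members' promoters were read from RefSeq (GRCm38.p6, windows of 250 bases before to 50 after a start). Of the members 69 matched. The core of the NRF1 site (CGCANGCG, both strands) was in 30 of the members' 75 windows, against 8.2% of all 32851 windows, namely 12 of 34 in complex I, 2 of 3 in II, 3 of 5 in III, 1 of 13 in IV and 12 of 20 in V. Windows are not genes, since 6 members have more than 1. The 32851 windows were not limited to genes tested here. A link between these motifs and the members' changes was not tested. The cores AAGATGGC of YY1, CCGGAAGT of ETS factors and NAAGGTCA of ERR were in 12, 5 and 8 of the members' windows and in 2.7%, 3.9% and 4.7% of all. Of the 17 members called for the interaction 15 had a window, and 5 of these held the NRF1 core in the 250 bases before the start. That count is of genes and leaves out the 50 bases after the start, so it cannot be set beside the shares of windows above. The 250 bases before the start are shown for 3 members with matches and for Uqcr10, which had the smallest interaction p and none, with matches to any of the 4 cores in capitals. Sdha (chr13:74350241-74350490, minus strand) holds 3 NRF1 cores, Cox6a1 (chr5:115348959-115349208, minus strand) 2, and Atp5h (chr11:115419920-115420169, minus strand) 1 and an ETS core. Uqcr10 is at chr11:4704345-4704594, minus strand. A match is a stretch of letters and not a measured site.
Sdha: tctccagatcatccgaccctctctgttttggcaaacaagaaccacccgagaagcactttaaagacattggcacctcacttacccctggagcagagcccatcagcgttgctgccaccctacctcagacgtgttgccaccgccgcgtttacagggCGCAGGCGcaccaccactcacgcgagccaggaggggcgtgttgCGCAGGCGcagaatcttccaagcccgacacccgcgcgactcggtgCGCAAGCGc
Cox6a1: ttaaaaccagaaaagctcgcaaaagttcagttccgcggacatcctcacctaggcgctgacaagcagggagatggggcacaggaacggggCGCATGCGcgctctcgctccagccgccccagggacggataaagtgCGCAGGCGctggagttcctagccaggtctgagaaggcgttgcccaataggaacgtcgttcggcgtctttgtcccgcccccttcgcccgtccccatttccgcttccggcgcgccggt
Atp5h: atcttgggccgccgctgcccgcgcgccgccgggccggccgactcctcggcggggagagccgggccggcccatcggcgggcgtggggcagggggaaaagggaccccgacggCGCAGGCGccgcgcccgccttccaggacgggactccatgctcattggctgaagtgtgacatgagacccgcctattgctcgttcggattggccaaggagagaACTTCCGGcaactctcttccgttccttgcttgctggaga
Uqcr10: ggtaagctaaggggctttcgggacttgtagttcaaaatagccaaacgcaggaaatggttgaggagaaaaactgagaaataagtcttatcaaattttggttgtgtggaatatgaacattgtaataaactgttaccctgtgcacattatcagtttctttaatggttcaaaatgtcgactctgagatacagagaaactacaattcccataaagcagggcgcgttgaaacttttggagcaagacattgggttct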

How the data were processed

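The deposited table holds raw read counts per gene symbol for 12 libraries. Polyadenylated RNA and a directional kit were used, per the labels' protocols. The submitters' processing notes name Trim Galore 0.4.1, cutadapt 1.9.1, STAR 2.5.0c, HTSeq, DESeq2 and the build mm9, without roles. The strand setting of the counting is not given in the sources used here. Shared exons, and near-identical copies over at least 50% of the transcript, are therefore given where a gene's change is described. Smaller shares of copies are given for Uqcr10, Uqcr11 and Ndufb4 only. Overlap, transcript length and copies (blastn 2.17.0, at least 95% identity over 100 bases, 50% of the transcript) came from GENCODE M21, another build, without coordinates.

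Counts were tested with edgeR 4.0.16 in R 4.3.3 (TMM, filterByExpr on the 4 groups, quasi-likelihood F test, two-sided, Benjamini-Hochberg over 13221 genes, call at 0.05). An additive fit gave the vector over both experiments and experiment 3 against 1 over both vectors. A 4-group model gave the vector in each experiment and the interaction. The SE is the effect over the square root of F. Correlations of log2 CPM within groups were 0.896 to 0.942. The floor of 3 counts covers counting error only, since PCR reads without molecular identifiers are not independent molecules. DESeq2 1.42.0, other scalings, no filter, left-out libraries and terms for sex and for other cells were tried.

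On simulated counts with known changes the test made no call of the wrong sign. False calls beside 96, 63, 53 and 23 recovered genes at a fold of 2 were 6, 5, 3 and 2 (over both, experiment 1, experiment 3 and interaction). At a fold of 4 there were 8, 8, 4 and 5 beside 142, 122, 117 and 92. The share of false calls was above 0.05 in each of these except experiment 3 at a fold of 4. Of genes changed by a fold of 2, it recovered 50.3% over both experiments (12802 genes run), 33.2% in experiment 1 (12812), 27.7% in experiment 3 (12818) and 12.2% for the interaction (12816). At a fold of 4 these were 73.2%, 62.6%, 60.6% and 47.4% (12817, 12819, 12809 and 12810 genes run). A member without a call is therefore not shown to lack a change of that size.

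The members and lists were chosen with earlier results of these data known. Named genes are, by rule, members called over both experiments, the 5 with the smallest interaction p, the highest per length in each complex, and fixed core subunits and isoforms, of which 1 is not reported here. Other members named, the other named mitochondrial genes without a call over both experiments, the alveolar macrophage term, the male libraries, the per-experiment medians, the modules of complexes I and V, the level and length splits, the copy thresholds and the motifs were chosen after values were seen.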

Additional observations from a re-analysis of the deposited data

Results flagged for a closer look

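In 17 subunit genes the effect of AdTGFb1 differed between the 2 experiments by the interaction test of edgeR (adjusted p under 0.05 over all genes). The values are the log2 fold change in experiment 3 minus that in experiment 1. In complex I they were -2.35 for Ndufs7, -1.27 for Ndufa3 and -0.97 for Ndufa13. In complex II they were -1.60 for Sdhc and -0.80 for Sdha, and in complex III -2.08 for Uqcr10 and -1.92 for Uqcr11. In complex IV they were -1.07 for Cox6c and -0.97 for Cox6a1. In complex V they were -1.83 for Atp5g1, -1.32 for Atp5o, -1.22 for Atp5j2, -0.99 for Atp5h, -0.94 for Atp5j, -0.94 for Atp5f1, -0.81 for Atp5c1 and -0.72 for Atp5b.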

How the results depend on the processing

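The medians of the members kept their sign in every setting run, from 0.245 to 0.571 in experiment 1, -0.369 to -0.187 in experiment 3 and -0.922 to -0.324 for the interaction. Calls depended on the covariates and on single libraries. Other scalings, no filter and DESeq2 kept all 21, 4 and 17 calls of experiment 1, experiment 3 and the interaction. All-gene shares of calls fell in the fits with added terms as well, in experiment 1 from 24.7% to 9.8% (sex), 0.923% (other-cell markers), 5.51% (alveolar macrophage markers) and 8.76% (males only). The members' median there was 0.571 with other-cell markers, beside 0.489 without the term. In experiment 1 the count was 4 with a term for sex, 0 with other-cell markers, 2 with alveolar macrophage markers, 3 with the males only and 11 to 28 with 1 library left out (11 without AdTGFb1 DC 52). In experiment 3 it was 1 with other-cell markers, 0 with alveolar macrophage markers and 1 to 5 with 1 library left out (2 without AdCL DC 949, 2 without AdTGFb1 DC 954 and 1 without AdTGFb1 DC 956). For the interaction it was 0 with each of these terms and with the males only, and 7 to 19 with 1 library left out (7 without AdTGFb1 DC 52, 9 without DC 54, 10 without AdCL DC 949 and 8 without AdTGFb1 DC 956). The median in experiment 1 was 0.245 with alveolar macrophage markers, and that of the interaction -0.634 with sex, -0.638 with the males only and -0.324 with alveolar macrophage markers. Over both experiments, 1 member lower became 0 without the filter, with sex, with other-cell markers and without the experiment term (0 to 1 with 1 library left out). None higher became 2 without the filter and with DESeq2 (0 to 3 with 1 library left out). For experiment 3 against 1, none became 1 with DESeq2 and with sex (0 to 1 with 1 library left out). Medians over both experiments turned negative with sex in complexes I (-0.080), III (-0.159), IV (-0.236) and V (-0.090), and with other-cell markers in I (-0.228), II (-0.149), III (-0.134), IV (-0.303) and V (-0.283). They ran from 0.009 to 0.219, 0.323 to 0.571, 0.011 to 0.152, -0.123 to 0.190 and -0.005 to 0.215 in complexes I to V with 1 library left out. Signs turned for Cox6c with alveolar macrophage markers (-0.28 in experiment 1, 0.57 for the interaction) and, with other-cell markers in experiment 1, for Ndufv2 (-0.01) and Ndufv3 (-0.21). The cause was not tested. Recovery of a fold of 2 in simulation was 12.2% for the interaction, so that a gene without a call may still differ at this depth. No paired analysis was possible because the groups share no replicate number.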
